A study of Homo sapiens with 4 samples.

Results

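The ISG15 system was described through 6 genes, chosen by name from the 35211 genes of the deposited count table: ISG15 itself, UBA7, UBE2L6, HERC5, HERC6 and USP18. All 6 were found in the table and all 6 passed the filter on low counts. RNA was sequenced, after depletion of ribosomal RNA, from the human prostate cancer lines DU145 and PC3, both established lines. Each had received either a negative control plasmid or an overexpression plasmid for circ0003553, a circular RNA (RCAN3 is the gene in the sample titles). The 4 groups, control and circ0003553 in each line, held 1 library each. All 4 share the transfection of a plasmid, and untransfected cells were not analysed here. The sources used here give neither the time after transfection nor the plasmid backbone.

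ISG15 is a ubiquitin-like protein that is strongly induced by type I interferon and is attached to other proteins in a process called ISGylation. UBA7 activates it as the E1 enzyme, UBE2L6 carries it as the E2 enzyme, and HERC5 is the main ligase (E3) in human cells, while HERC6, its neighbour and relative, is the main ISG15 ligase in mice. USP18 removes ISG15 from proteins and, separately from that activity, dampens signalling at the type I interferon receptor. Transcription of such genes commonly runs through a complex holding STAT2 and IRF9 that binds interferon-stimulated response elements, with a core of paired GAAA blocks.

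The sequence in front of the start site is shown for ISG15 and HERC5, where a search for paired GAAA blocks found a match. Promoter windows, 250 bases before to 50 bases after a start site, came from RefSeq (GRCh38.p14) and were found for 4 of the 6 genes (ISG15, HERC5, HERC6 and UBE2L6, the last with 2 windows). They were searched on both strands for GAAANNGAAA, counting overlapping matches. Both stretches lie on the plus strand, start 150 bases before the start site and stop before any exon base of the gene in the deposited table. Capitals mark bases within a match, which on the opposite strand reads TTTCNNTTTC.
ISG15 (chr1:1013347-1013422): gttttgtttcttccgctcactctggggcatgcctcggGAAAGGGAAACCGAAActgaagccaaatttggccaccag
HERC5 (chr4:88456969-88457068): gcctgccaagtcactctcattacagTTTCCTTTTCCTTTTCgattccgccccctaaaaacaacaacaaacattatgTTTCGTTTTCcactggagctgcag
The ISG15 window held 2 overlapping matches on the strand of the gene, with their first bases at positions -113 and -107 from the start site. The HERC5 window held 3 matches on the opposite strand, with first bases at -125, -119 and -74, and the first 2 of these overlap. HERC6 also rose, by a fitted 3.07-fold across the lines against 2.21-fold for HERC5, but its window held no match. Neither window of UBE2L6 held a match. For comparison, 3.57% of all 35116 promoter windows held a match, as did the windows of 22 of 29 other interferon-stimulated genes with a window (75.9%). Of 481 tested genes with a match, 21 (4.37%) were called higher with circ0003553 by the test described below, against 53 of all 11783 tested genes with a window (0.450%). These last counts include ISG15 and HERC5 themselves, so they restate the same calls and are no separate support. They were made after the values had been seen, and a match is not evidence of binding.

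Gene counts summed to 33438509 to 39488890 per library. Within a line, ratios are of 1 library to 1 library, scaled by the trimmed mean of M-values (TMM). They carry no test, and their 95% exact intervals (Clopper-Pearson) hold nothing but counting error. Of values from 1 to 20, 70.3% to 75.3% were even in each library, and intervals from halved counts, in which a pair of reads weighs 1, are given beside the others. Across lines, the plasmid effect was tested in a model that also held the cell line, by edgeR's quasi-likelihood test. P-values were adjusted by the Benjamini-Hochberg method over all 21731 genes tested, with a threshold of 0.05. With 2 libraries per plasmid this left 1 residual degree of freedom, and the standard errors (SE) rest mostly on a spread shared across genes. The 2 libraries with each plasmid came from different lines, so the lines served as the only replicates of the plasmid effect. No spread between replicate cultures within a line was measured. Nothing in the labels says whether libraries came from separate cultures, so p-values measure the spread between these libraries only. RCAN3 counts, which do not separate circular from linear RNA, were 639 and 816 in the control and circ0003553 libraries of DU145 and 1212 and 3798 in those of PC3. Epithelial markers summed to 1211 to 5150 scaled counts (CPM, the count after TMM scaling per 1e+06 counts) per library. CDH1 among them had 4821 and 2478 counts in the control and circ0003553 libraries of DU145, but 84 and 108 in those of PC3.

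The modifier and 2 HERC genes rose with the circ0003553 plasmid, while the E1 and E2 enzymes and the protease did not pass the test. Of the 6 genes, 3 were called higher and 0 lower, against a background of 0.396% of all tested genes called higher and 0.069% called lower (0.465% in either direction). Within DU145, 3 of the 5 genes with at least 50 counts over both libraries were at least 2-fold higher and 0 at least 2-fold lower, against 1.03% and 0.992% of all 17650 such genes. HERC6 was just past that limit, at 2.04, and under it, at 1.99, with scaling by total counts and in the deposited RPKM. Within PC3, 3 of 6 were at least 2-fold higher and 0 lower, against 0.824% and 0.334% of 17363 genes. ISG15 had the largest fitted change of the 6, 4.41-fold across the lines, followed by HERC6 (3.07-fold) and HERC5 (2.21-fold). The median fitted log2 fold change of the 6 genes was 0.82, against 0.00303 over all genes tested. In CPM, both circ0003553 libraries lay above both control libraries for the same 3 genes, ISG15, HERC5 and HERC6, a pattern that 5.16% of tested genes showed.

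**Figure D1:**
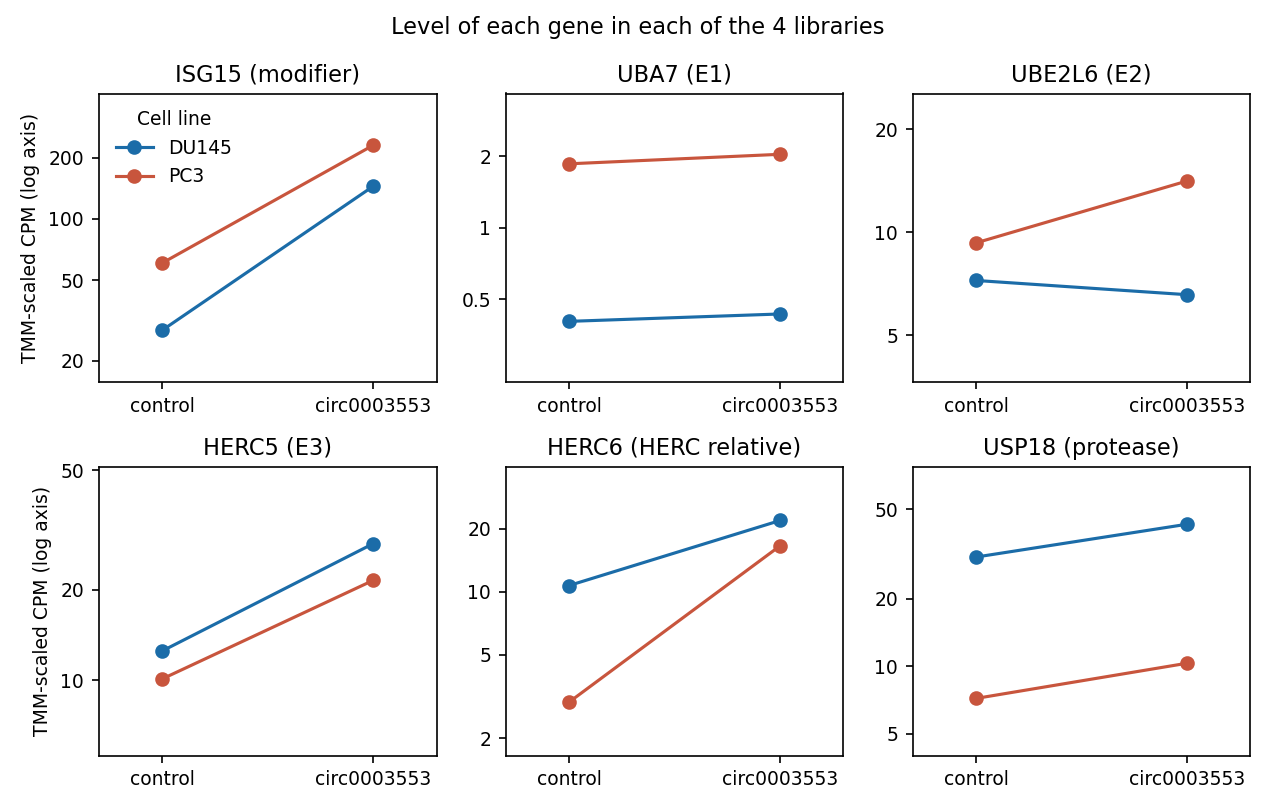
TMM-scaled CPM (vertical log axis, scaled separately for each gene) of the 6 genes in the control and circ0003553 libraries, with 1 point per library and a line joining the libraries of DU145 (blue) or PC3 (red). ISG15, HERC5 and HERC6 are higher with circ0003553 in both lines, UBE2L6 runs in opposite directions, and USP18 and UBA7 are separated mainly by line.

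ISG15, on chromosome 1 (plus strand, 1001138 to 1014541 in the deposited hg38 table), had 28.2 CPM in DU145 with the control plasmid and 145 with circ0003553, and 60.6 and 231 CPM in PC3. Both circ0003553 libraries were far above both controls, and the groups did not overlap. The ratio was 5.14 in DU145 (95% interval 4.81 to 5.48) and 3.81 in PC3 (3.63 to 4.0). These intervals did not overlap either, so the ratio was larger in DU145 by more than counting error, at 1.35 times that of PC3. With halved counts the intervals, 4.69 to 5.64 and 3.56 to 4.09, were still apart. Whether the lines differ in this response beyond the spread between cultures could not be tested with 1 library per group. Over both lines the log2 fold change came to 2.14 ± 0.12 (SE; n = 2 libraries with each plasmid), with an adjusted p of 1.07e-07 in edgeR's quasi-likelihood test, place 17 by size among the 86 genes called higher. ISG15 shares 36 of its 942 exon bases with RP11-54O7.10 on the other strand, and that gene had 5, 24, 21 and 23 counts in the same order of libraries. The counts of ISG15 itself were 1116, 5336, 1958 and 8961. Without a stated strand setting, reads from the shared bases cannot be told apart.

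UBA7, the E1 enzyme gene on chromosome 3 (minus strand, 49805207 to 49813946), was close to the limit of detection in DU145. Its counts were 16 with either plasmid in DU145, and in PC3 60 with control and 79 with circ0003553. Both PC3 libraries were thus above both DU145 libraries, and the plasmids overlapped. A gap between the lines is common, as 65.9% of all tested genes were called between them. The ratio was 1.07 in DU145 (95% interval 0.503 to 2.29) and 1.10 in PC3 (0.774 to 1.56). The fit gave a log2 fold change of 0.13 ± 0.34 (adjusted p = 0.962, edgeR), and the intervals allow changes in either direction at this depth.

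UBE2L6, the E2 enzyme gene on chromosome 11 (minus strand, 57551656 to 57568284), went in opposite directions in the 2 lines. Its CPM went from 7.23 with control to 6.57 with circ0003553 in DU145, and from 9.31 to 14.1 in PC3. The PC3 circ0003553 library stood above the other 3. The ratio of 0.909 in DU145 had an interval that included 1 (0.763 to 1.08), while the ratio of 1.52 in PC3 did not (1.31 to 1.75). With halved counts these intervals were 0.707 to 1.17 and 1.23 to 1.86. Across lines the log2 fold change was 0.26 ± 0.18 and was not called (adjusted p = 0.755, edgeR's quasi-likelihood test). Ratios of opposite sign in the 2 lines were found for 43.4% of all tested genes.

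HERC5, the ligase gene on chromosome 4 (plus strand, 88457117 to 88506163), rose by nearly the same ratio in both lines. It had 12.5 and 28.5 CPM in the control and circ0003553 libraries of DU145, and 10.1 and 21.5 in those of PC3. The 2 controls lay close together and below both circ0003553 libraries. The ratios were 2.28 (2.05 to 2.54) and 2.13 (1.87 to 2.43), with overlapping intervals. The fitted log2 fold change was 1.14 ± 0.13 (adjusted p = 0.000306, edgeR's quasi-likelihood test). The call was lost without a filter on low counts (adjusted p = 0.100) and, like those of ISG15 and HERC6, when the cell line was left out of the model (0.9999).

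HERC6, 14006 bases away on the same chromosome and strand (88378739 to 88443111), rose unevenly. It had 10.7 and 21.9 CPM in DU145 and 2.97 and 16.6 in PC3, in the order control and circ0003553. The PC3 control stood lowest, 3.60 times below the DU145 control, while the 2 circ0003553 libraries were 1.32-fold apart. The ratio was 2.04 in DU145 (1.81 to 2.30) and 5.58 in PC3 (4.49 to 6.99), and the intervals were also apart with halved counts (1.72 to 2.42 and 4.12 to 7.73). The fitted log2 fold change of 1.62 ± 0.23 (adjusted p = 0.00331, edgeR's quasi-likelihood test) therefore averages 2 ratios that differ by 2.73 times. Its call was lost with limma-voom (adjusted p = 0.225) and without a filter on low counts (0.559). In DU145 HERC5 and HERC6 had overlapping intervals, whereas in PC3 the HERC6 ratio was above that of HERC5.

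The genes that flank the pair were not called, which says little by itself, as only 0.465% of all tested genes were. The log2 fold change of PYURF, next to HERC5, was 0.14 ± 0.10 (adjusted p = 0.784), and that of PPM1K, next to HERC6, 0.17 ± 0.23 (0.902). HERC3, a small HERC gene of the ubiquitin system, had 0.14 ± 0.10 (adjusted p = 0.765, all by edgeR's quasi-likelihood test). The neighbours of ISG15, HES4 and AGRN, had log2 fold changes of 0.29 ± 0.24 and 0.10 ± 0.09 and were not called either (adjusted p = 0.807 and 0.840).

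USP18, the protease gene on chromosome 22 (plus strand, 18149899 to 18177397), was modestly higher with circ0003553 in each line but did not pass the test. It had 30.7 and 43.0 CPM in the control and circ0003553 libraries of DU145, and 7.18 and 10.3 in those of PC3. Both PC3 libraries were below both DU145 libraries, so the plasmids overlapped across lines. Here too the gap is of a common kind, with 65.9% of all tested genes called between the lines. The ratio was 1.40 in DU145 (95% interval 1.3 to 1.51) and 1.44 in PC3 (1.22 to 1.70), and the intervals from halved counts (1.26 to 1.56 and 1.14 to 1.82) did not include 1 either. The fitted log2 fold change was 0.50 ± 0.12, and edgeR gave an unadjusted p of 0.000945 and an adjusted p of 0.119. USP41, a near-identical relative of USP18, had 8 counts with control and 4 with circ0003553 in DU145, and 2 and 10 in PC3. Reads that fit both genes may have been split or dropped, so the level of USP18 is uncertain to that extent.

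**Figure D2:**
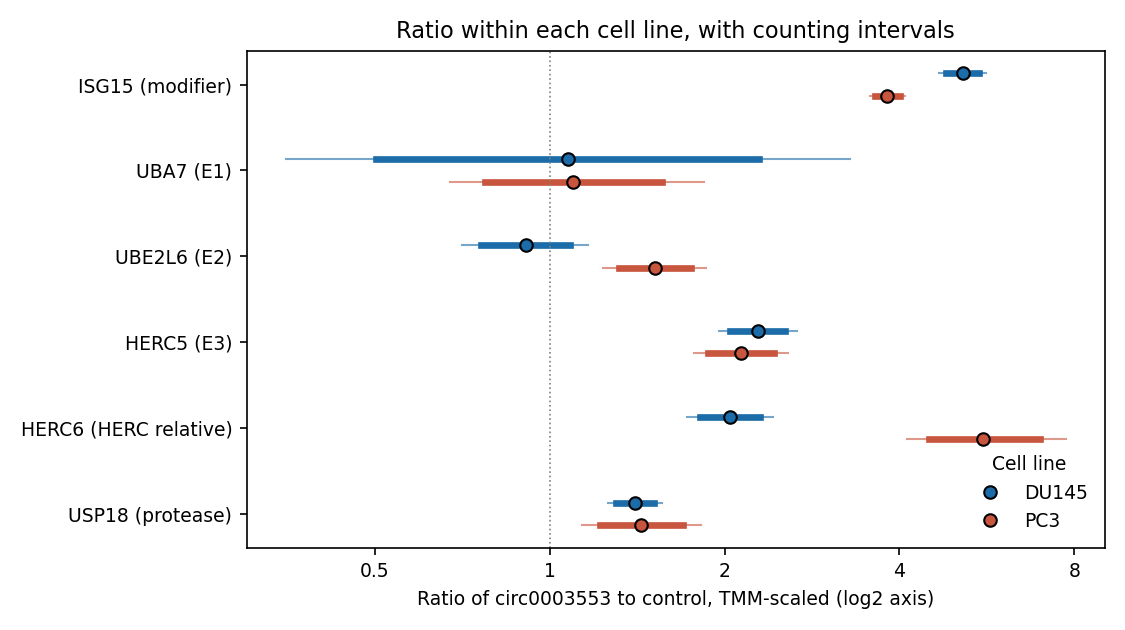
Ratio of circ0003553 to control for each of the 6 genes (horizontal log2 axis) in DU145 (blue) and PC3 (red). Thick bars are 95% exact intervals from the counts and thin bars those from halved counts, and the dotted line marks a ratio of 1. The bars of HERC5, USP18 and UBA7 overlap between lines, while those of ISG15, HERC6 and UBE2L6 do not.

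The lines themselves differed in all 6 genes, in both directions. This says little by itself, as 65.9% of all tested genes were called between PC3 and DU145 in the same fit (33.1% higher and 32.8% lower in PC3). UBA7 was 4.61-fold higher in PC3 (log2 2.20 ± 0.37, adjusted p = 9.7e-05), ISG15 1.84-fold (0.88 ± 0.11, 7.16e-06) and UBE2L6 1.67-fold (0.74 ± 0.18, 0.00203). USP18 was 4.22-fold higher in DU145 (log2 of PC3 to DU145 -2.08 ± 0.12, adjusted p = 1.62e-09), HERC6 1.94-fold (-0.95 ± 0.23, 0.00206) and HERC5 1.29-fold (-0.36 ± 0.12, 0.019; all by edgeR's quasi-likelihood test). For USP18 the gap was nearly the same under either plasmid, at 4.27-fold between the controls and 4.17-fold between the circ0003553 libraries. For HERC6 it was 3.60-fold between the controls and 1.32-fold between the circ0003553 libraries. The line calls of UBE2L6 and HERC5 were lost with DESeq2 (adjusted p = 0.0761 and 0.159), and that of HERC6 without a filter on low counts (0.0573).

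Levels of different genes can be compared only per length, in RPKM, the deposited read counts scaled by gene length and library total. By RPKM, ISG15 was the most abundant of the 6 in every library and UBA7 the least abundant. In counts without length scaling, USP18 (1212) was above ISG15 (1116) in the DU145 control. The RPKM of ISG15 was 31.1 with control and 155 with circ0003553 in DU145, and 62.2 and 241 in PC3. Ranked by RPKM among all 35211 genes, ISG15 moved from place 1617 to 277 in DU145 and from 836 to 182 in PC3. Its share of the summed RPKM of the 6 genes was 57.4% and 82.3% in the control and circ0003553 libraries of DU145, and 85.8% and 92.8% in those of PC3.

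USP18 was second in DU145, at 15.0 and 20.4 RPKM in the control and circ0003553 libraries, but behind UBE2L6 in PC3, at 3.26 and 4.76. The RPKM of ISG15 was thus 2.08 times that of USP18 in the DU145 control (95% interval 1.92 to 2.26) and 7.63 times in the DU145 circ0003553 library (7.21 to 8.07). In PC3 it was 19.1 times (16.6 to 22) in the control and 50.6 times (45.8 to 56.1) in the circ0003553 library. These ratios depend on the length scaling. Without it the ratio of counts was 0.921 in the DU145 control, below 1, and 3.38, 8.44 and 22.4 in the other 3 libraries. On either scale the modifier stood higher relative to its protease in PC3 than in DU145 under either plasmid, and higher with circ0003553 than with control in each line.

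UBE2L6 lay at 3.42 and 3.02 RPKM in the control and circ0003553 libraries of DU145 and at 4.10 and 6.32 in those of PC3. HERC5 lay at 2.72 and 6.03 in DU145 and at 2.05 and 4.43 in PC3. In the DU145 control the order was UBE2L6, HERC5, HERC6, and with circ0003553 both HERC genes were above UBE2L6. In PC3, UBE2L6 was above both HERC genes under either plasmid. HERC6 lay at 1.92 and 3.81 RPKM in DU145 and at 0.496 and 2.81 in PC3. HERC5 was 4.13 times HERC6 in the PC3 control and 1.42 to 1.58 times in the other 3 libraries. Most neighbours in these orders were apart by more than counting error. The exceptions were USP18 and HERC5 in the PC3 circ0003553 library (ratio 1.07, 0.951 to 1.21) and HERC6 and UBA7 in the PC3 control (1.26, 0.900 to 1.76). UBE2L6 and USP18 in the PC3 control (1.26, 1.06 to 1.50) could not be told apart with halved counts (0.984 to 1.62).

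UBA7 had 0.0925 and 0.0966 RPKM in DU145 and 0.395 and 0.440 in PC3, in the order control and circ0003553. UBA1, the main E1 of ubiquitin, had 13.4 to 15.7 RPKM over the 4 libraries, which was 144 and 154 times UBA7 in DU145 and 34.1 and 35.7 times in PC3. UBE2L3, the E2 of the ubiquitin system most closely related to UBE2L6, had 23.8 to 31.0 RPKM. It stood 9.07 and 8.54 times above UBE2L6 in the control and circ0003553 libraries of DU145 and 5.84 and 3.77 times in those of PC3. The ISG15 message was 337 times that of its own E1 in the DU145 control, an interval of 206 to 591, and 1609 times with circ0003553 (990 to 2817). In PC3 it was 157 times (122 to 207) and 547 times (439 to 692).

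**Figure D3:**
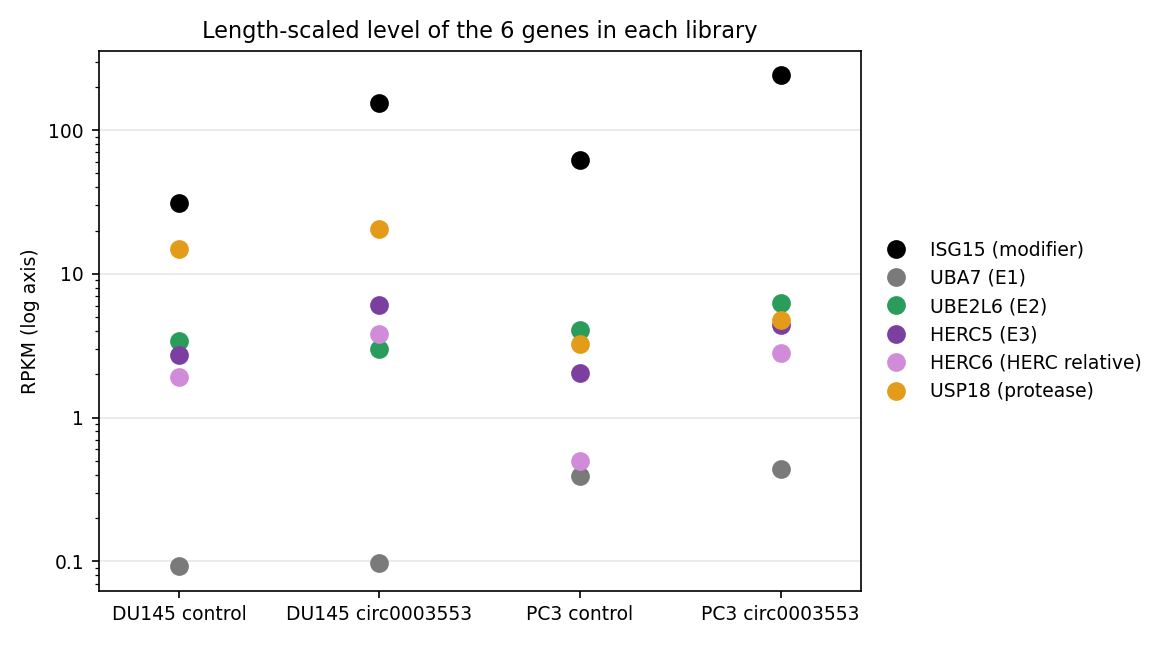
RPKM of the 6 genes (vertical log axis) in each of the 4 libraries, with 1 point per gene and library. ISG15 is highest everywhere, at 31.1 to 241 RPKM, UBA7 is lowest everywhere, and USP18 is second in the DU145 libraries but behind UBE2L6 in the PC3 libraries.

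Other genes tied to ISG15 were read from lists. Of all genes tested, 0.465% were called in either direction, so 0 calls in a list of this size says little by itself. Of 11 tested genes for other ligases, conjugating enzymes and proteases described as acting on ISG15, 0 were called, and their median log2 fold change was -0.03 against 0.00303 over all genes tested. TRIM25, a ligase that acts in RNA sensing, had the largest value at 0.50 ± 0.12 (adjusted p = 0.129 by edgeR). Its counts went from 2952 to 4754 in DU145 and from 4241 to 5867 in PC3. After TMM scaling the ratio was 1.73 in DU145 (1.65 to 1.81) but 1.15 in PC3 (1.11 to 1.20). USP5, a protease with broad activity towards ubiquitin chains, had 0.04 ± 0.10 (adjusted p = 0.952). Of 11 ubiquitin genes and relatives of the 6 genes, 0 were called, with UBB, a polyubiquitin gene, at -0.02 ± 0.10 (adjusted p = 0.987). Of 32 tested genes of the NEDD8, SUMO, UFM1, FAT10, URM1 and ATG12 modifier systems, 0 were called. Their median was -0.05, with SUMO3 at -0.19 ± 0.10 and UBA2, a subunit of the SUMO E1, at -0.08 ± 0.10 (adjusted p = 0.622 and 0.891).

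Among 23 tested genes for proteins described as ISG15 targets or partners, 6 rose and 0 fell in RNA, with a median log2 fold change of 0.21. Over all genes tested, 0.396% were called higher and 0.069% lower. MX1, an antiviral GTPase, rose 5.0-fold, IFIT3, which works with IFIT1 on viral RNA, 4.86-fold, IFIT1 3.4-fold and DDX58, the RNA sensor RIG-I, 3.06-fold (adjusted p = 1.3e-07, 2.56e-05, 2.29e-06 and 0.000995, edgeR's quasi-likelihood test). These 4 are themselves interferon-stimulated genes and stand in that list too. Their folds average unlike lines, with ratios of 3.24 in DU145 and 7.72 in PC3 for IFIT3 and 2.00 and 4.77 for DDX58. The ratios were 5.71 and 4.14 for MX1 and 3.08 and 3.81 for IFIT1. Of 16 genes of interferon receptor, JAK-STAT and IRF signalling, 2 rose and 0 fell, against the same shares over all genes. IRF9 rose 2.78-fold (log2 1.48 ± 0.14, adjusted p = 4.14e-05 by edgeR), with counts of 499 and 1564 in the DU145 libraries and 571 and 1584 in the PC3 libraries. Its TMM-scaled ratio was 3.37 in DU145 and 2.31 in PC3. The call of DDX58 was lost with limma-voom (adjusted p = 0.122). STAT2, which acts with IRF9, had 0.28 ± 0.11 and was not called (adjusted p = 0.464, edgeR's quasi-likelihood test).

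Of 38 other interferon-stimulated genes tested, 23 rose and 0 fell, against 0.396% and 0.069% of all genes tested. Their median log2 fold change was 1.29. OASL rose 8.89-fold, DDX60 8.77-fold and IFIT2 7.14-fold (adjusted p = 8.51e-05, 5.07e-08 and 1.82e-05, edgeR's quasi-likelihood test). These folds average unlike lines, as the ratio of OASL was 4.47 in DU145 and 18.7 in PC3, that of DDX60 6.69 and 11.0, and that of IFIT2 4.29 and 12.5. OASL was not called by DESeq2 (adjusted p = 0.0911), and neither OASL (0.261) nor IFIT2 (0.167) was called when genes with low counts were kept. RSAD2 was called higher too (adjusted p = 0.000325 by edgeR). No count of it was seen in the DU145 control, where circ0003553 gave 18, and PC3 went from 14 to 228. Within the ISG15 system, ISG15 lay above this median, HERC6 also above, and HERC5 just below it, while UBA7, UBE2L6 and USP18 lay well below. The summed level of 4 leukocyte markers was 195 and 271 CPM in the control and circ0003553 libraries of DU145 and 441 and 524 in those of PC3. Nearly all of it was CD68, a lysosomal protein, and PTPRC, which defines leukocytes, had 0 counts in 3 libraries and 2 in the PC3 control. Fibroblast markers summed to 5.46 and 3.48 CPM in DU145 and 43.4 and 45.9 in PC3, control first. Endothelial markers summed to 0.455 and 0.924 CPM in DU145 and 66.6 and 57.2 in PC3. In PC3, KDR had 1564 and 1624 counts, COL1A1 1153 and 1519, PECAM1 585 and 595, and PDGFRA 238 in each library. In bulk RNA, more cells with a transcript and more transcript per cell cannot be told apart.

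**Figure D4:**
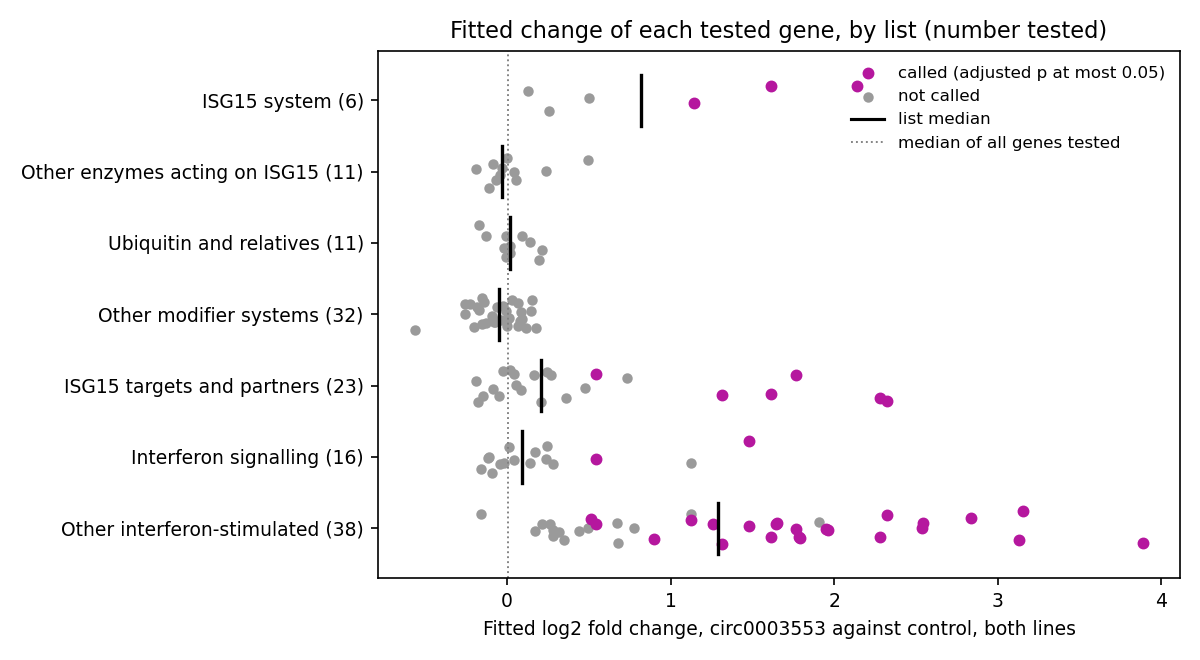
Fitted log2 fold change of circ0003553 against control (horizontal axis) for each tested gene of 7 lists, with called genes in magenta, others in grey, the list median as a black bar and the median of all tested genes as a dotted line. Calls are seen in the ISG15 system (3 of 6), targets and partners (6 of 23), interferon signalling (2 of 16) and other interferon-stimulated genes (23 of 38), and none in the other 3 lists. Over all genes tested, 0.465% were called.

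The genes with the profiles most like each of the 6 were found by the root-mean-square distance between mean-centred log2 CPM over the 4 libraries, among genes whose mean log2 CPM was 1 or more. The nearest to ISG15 was ISG20, an interferon-induced exonuclease (distance 0.29), followed by IFI6 (0.30) and PMAIP1, a pro-apoptotic BCL2-family gene (0.40). The counts of ISG20 went from 411 to 1123 in DU145 and from 589 to 2450 in PC3. HERC6 was nearest to IFIT3 (0.32), then to PRR15 (0.35) and IFIT1 (0.41). UBE2L6 was nearest to ZNF70 and to GBP1, an interferon-induced GTPase (0.05 each), and the counts of GBP1 were 123 and 97 in DU145, 131 and 221 in PC3. HERC5 was nearest to AC007899.3 (0.19) and TEP1 (0.21), and USP18 to CELSR3 (0.07). With 4 libraries such distances are a description only.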

How the data were processed

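Members and gene lists were chosen with earlier results of these data known. Gene counts in whole numbers and RPKM were deposited. The deposited RPKM equalled the counts divided by gene length and library total (relative difference below 1e-09). Build hg38, edgeR 3.12.1, Subread 1.5.1, featureCounts and Trimmomatic 0.36 stand in the submitters' processing notes, with no role. Per the labels' protocols, libraries were strand-specific with molecular identifiers. The sources used here do not give the aligner, the strand setting or any collapsing of identifiers. Columns carrying NC were taken as control and those carrying RCAN3 as overexpression plasmid, by name.

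Counts were fitted in edgeR 4.0.16 (R 4.3.3) with an additive model of line and plasmid, TMM scaling and low-count filtering by plasmid. The prior degrees of freedom were 13.4, and the script was tested on simulated data. SE is the fitted change divided by the square root of F. The pairing comes from the labels, as libraries of 1 line were set against each other. DESeq2 1.42.0, limma-voom (limma 3.58.1), legacy dispersions, other scalings, other filters and halved counts were alternatives. Named genes were all 6 members, up to 4 called genes per list by size of change, 2 by mean level where none was called, the 3 nearest profiles and genome neighbours. STAT2, HERC3, UBA1, UBE2L3, PTPRC and USP41 were added by role after their values had been seen. Some named genes are not reported here.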

Additional observations from a re-analysis of the deposited data

Results flagged for a closer look

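UBE2L6 ran in opposite directions in the 2 lines. Its log2 ratio of circ0003553 to control was -0.14 in DU145 and 0.60 in PC3, a difference of 0.73 that was not tested, as each group held 1 library. The same held at smaller size for UBB (-0.07 and 0.04, difference 0.11) and for UBA2 (0.04 and -0.21, difference -0.24). Opposite signs were found for 43.4% of all tested genes.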

How the results depend on the processing

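In the plasmid comparison, 51 of 57 values of the 6 genes under an alternative kept their direction and their side of the threshold, 6 lost the call and 0 reversed. All 6 losses fell on ISG15, HERC5 and HERC6. The 57 values also include those of UBA7, UBE2L6 and USP18, which had no call to lose. Without the cell line as a block (no replicate block), ISG15, HERC5 and HERC6 kept log2 fold changes of 2.08, 1.14 and 1.49 but lost their calls (adjusted p = 0.9999 each). That edgeR fit called 0 genes, while 26 had an unadjusted p below 0.05. Without a filter on low counts, HERC5 (1.15, adjusted p = 0.100) and HERC6 (1.58, 0.559) lost their calls, as did HERC6 with limma-voom (1.53, 0.225). Apart from the fit without the block, ISG15 was called under every alternative that held it, and the fit on genes sharing no exon base does not hold it. UBA7 got no adjusted p from DESeq2 and was left out where 50 counts were required in every library. The 101 genes called became 63 with DESeq2, 26 with limma-voom, 53 with legacy dispersions, 56 with upper-quartile scaling, 9 without a filter, 43 with at least 50 counts in every library and 48 among genes sharing no exon base. UBB, not called, turned from -0.02 to 0.011 without the block. Of 150 values of other named genes, 22 lost the call. DDX58 lost it with limma-voom and no filter (adjusted p = 0.122 and 0.474), OASL with DESeq2 and no filter (0.0911 and 0.261), and IRF9, IFIT2, IFIT3 and RSAD2 with no filter (0.100, 0.167, 0.167 and 0.0526). Between lines, UBE2L6 (log2 0.73) and HERC5 (-0.36) lost their calls with DESeq2 and HERC6 (-0.89) without a filter. Within lines, all 48 values of the 6 genes under another scaling, prior count, halving or deposited RPKM stayed within their counting intervals. Genes 2-fold apart became 174 in DU145 and 79 in PC3 with halved counts, fewer also because fewer passed the count minimum. Without length scaling the ratio of ISG15 to USP18 was 0.921 with control and 3.38 with circ0003553 in DU145, and 8.44 and 22.4 in PC3. The cause of these shifts was not tested otherwise. Leaving out a line leaves 1 library per plasmid and no test, and the ratios within lines stand in its place.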
